A study of Gallus gallus with 9 samples.

Results

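RNA from the thymus of ROSS 308 broiler chicks on post natal day 21 was compared between chicks given lipopolysaccharide with genistein (GEN) and chicks on the basic diet (CON), with 3 libraries in each group. A gene was included when it had at least 1 FPKM (fragments scaled by gene model length and library total) in at least 3 of these 6 libraries, which held for 13117 of the 25016 genes in the table. Of these, 12665 carried Ensembl identifiers and 452 were genes predicted by the submitters. A further group of 3 libraries, from chicks given lipopolysaccharide alone (LPS), did not enter the tests and is given as a reference. The labels used here state no doses, days of treatment, sex or pooling of animals, so the p-values measure the spread between these libraries, which may be partly technical.

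The thymus is the organ in which T cells mature, and most of its RNA comes from developing T cells held in an epithelial network. Lipopolysaccharide, a component of the outer membrane of Gram-negative bacteria, is sensed through Toll-like receptor 4 and sets off NF-kB signalling and inflammatory cytokines, and the thymus is known to shrink under such stress. Genistein is a soy isoflavone that binds oestrogen receptors and inhibits tyrosine kinases. No source used here pairs the identifiers with gene names, so the genes of these pathways and the markers of thymic cell types could not be looked up, and the label of the tissue could not be checked against them. Genes are described by position in GRCg6a, by level, by length and by chromosome. In bulk tissue, fewer cells of a type and less RNA per cell cannot be told apart.

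The 6 libraries held 19618047 to 24026628 gene fragments each. CON 3 stood apart: its log2 levels correlated across the 13117 genes at 0.882 and 0.879 with CON 1 and CON 2, while the other pairs within a group gave 0.975 to 0.981. The first principal component of the 6 libraries held 70.8% of the variance and set CON 3 (94.1) against the other 5 (-21.8 to -15.0). The second held 11.4% and placed CON 1 at 29.1 and CON 2 at 11.02, and GEN 1, GEN 2 and GEN 3 at -0.93, -14.7 and -22.9. The total by which the authors scaled CON 3 was 0.767 times its sum of gene fragments, against 1.01 and 1.02 times in CON 1 and CON 2 and 1.05, 1.09 and 1.07 times in GEN 1, GEN 2 and GEN 3. The labels do not say why. Effects are therefore given with all 6 libraries and again without CON 3. The 126 gene models of chromosome W, which only hens carry, summed to 1.07 to 2.34 FPKM in 8 libraries and to 8.76 FPKM in CON 3.

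The question addressed was how thymic transcripts differed after both treatments from those under the basic diet. No gene passed the limma test with all 6 libraries (0 of 13117 with an adjusted p below 0.05, 0%). At an unadjusted p under 0.05, 409 genes were higher in GEN (3.12%) and 385 lower (2.94%), together 794 (6.05%). Evenly spread p-values would put 656 there. Without CON 3, limma again called 0 genes (0%), with 908 genes higher at an unadjusted p under 0.05 (6.92%) and 1178 lower (8.98%), together 2086 (15.9%). The lowest adjusted p was 0.153 and 0.0754 in these fits. limma-voom on recovered fragments called 0 genes with all 6 libraries, with 819 at an unadjusted p under 0.05, and 1 without CON 3, with 2019. The direction hung on the scaling. With each library scaled by its own sum of fragments, the split was 684 higher and 153 lower with all 6 libraries and 1328 higher and 648 lower without CON 3, and the median over all genes (log2 fold change) moved from 0.00 to 0.18 and from -0.02 to 0.04. Differences of groups of genes are therefore also given relative to the median of all genes.

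The groups of all 6 libraries did not overlap for 1152 genes higher in GEN (8.78%) and 1648 lower (12.6%), together 2800 (21.3%). Without CON 3 the GEN libraries lay above both others for 2046 genes (15.6%) and below both for 2719 (20.7%), together 4765 (36.3%). CON 3 did not always lie with CON 1 and CON 2. Of the 2046 genes it was below every GEN library for 1152 (56.3%), within the GEN range for 285 and above every GEN library for 609 (29.8%). Of the 2719 it was above every GEN library for 1648 (60.6%), within the range for 227 and below every GEN library for 844 (31.0%). At an unadjusted p under 0.05 in both fits, 350 genes were higher (2.67%) and 351 lower (2.68%), and 0 had opposite signs.

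Changes of at least 2-fold on the log2(FPKM + 1) scale numbered 264 higher and 71 lower with all 6 libraries, and 132 higher and 38 lower without CON 3. Of at least 4-fold there were 11 higher and 5 lower, and 8 higher and 4 lower. Standard errors of the log2 fold changes had a median of 0.25, and of 0.15 once CON 3 was left out. The median 95% interval of a gene, not adjusted for the number of genes, reached 1.52-fold and 1.28-fold to either side of its estimate. A smaller change of a typical gene could thus not be told from 0. Larger changes could also miss the adjusted threshold. A log2 fold change of 2.15 (SE 0.24) had a limma adjusted p of 0.158 with all 6 libraries. It belongs to ENSGALG00000025423, a short gene model with only 2 fragments in each CON library, described below.

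The 4 genes named by rule were the first 2 in each direction when genes whose groups do not overlap were ranked by the larger p of both fits, so that their separation is a description and no finding. ENSGALG00000025423 is a gene model of 75 bases on chromosome 6 (16653366 to 16653440, minus strand). It measured 1.19, 1.09 and 1.70 FPKM in CON 1, CON 2 and CON 3, and 9.98, 11.3 and 6.92 FPKM in GEN 1, GEN 2 and GEN 3. These rested on 2 fragments in each CON library and on 16, 18 and 13 in the GEN libraries, so the gene met the minimum of 10 fragments through the GEN libraries alone. The LPS libraries lay between the groups, at 2.0, 5.63 and 4.22 FPKM. The model lies within a longer one on the plus strand (16558510 to 16661215), which measured 9.86 ± 1.71 FPKM in GEN and 7.15 ± 2.36 in CON (SD, n = 3 each). The mean of CON 1 and CON 2 alone was 8.50 FPKM. Without a known strand setting the fragments of both models cannot be told apart. The limma log2 fold change was 2.15 (SE 0.24) with an adjusted p of 0.158 with all 6 libraries, and 2.26 (SE 0.21) with an adjusted p of 0.127 without CON 3.

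ENSGALG00000009651, on chromosome 9 (22606347 to 22610846, plus strand), measured 1.20, 1.98 and 1.48 FPKM in CON 1, CON 2 and CON 3 (30 to 63 fragments) and 6.96, 7.61 and 8.90 FPKM in GEN 1, GEN 2 and GEN 3 (193 to 289 fragments). Every GEN library thus held over 3 times the level of the highest CON library. The LPS libraries again lay between, at 3.41, 3.81 and 4.67 FPKM. A longer model on the minus strand (22602046 to 22620465) covers it and was not higher in GEN, with 23.2 ± 1.54 FPKM against 29.7 ± 8.14 in CON (SD, n = 3 each). The limma log2 fold change was 1.79 (SE 0.20, adjusted p = 0.158), and 1.78 (SE 0.19, adjusted p = 0.127) without CON 3.

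ENSGALG00000013371 was the first of the genes lower in GEN, on chromosome 28 (1380917 to 1382110, plus strand), with no other gene model over it. It measured 6.16, 6.38 and 5.87 FPKM in CON 1, CON 2 and CON 3 and 2.08, 2.44 and 1.74 FPKM in GEN 1, GEN 2 and GEN 3. In FPKM all 3 CON libraries lay within a narrow band above every GEN library. CON 3 held 110 fragments of the gene, against 165 and 187 in CON 1 and CON 2 and 53, 62 and 52 in the GEN libraries. The FPKM of CON 3 rests on its lower scaling total (0.767 times its gene fragments), so the closeness of the 3 CON libraries depends on the scaling. LPS 1 stood above every CON library at 6.45 FPKM, while LPS 2 (2.62) and LPS 3 (4.27) lay between the groups. The limma log2 fold change was -1.22 (SE 0.18, adjusted p = 0.363), and -1.24 (SE 0.16, adjusted p = 0.133) without CON 3.

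ENSGALG00000034975, on chromosome 17 (817872 to 821031, plus strand) and also free of overlapping models, measured 6.09, 7.13 and 7.59 FPKM in CON 1, CON 2 and CON 3 and 2.72, 2.70 and 3.22 FPKM in GEN 1, GEN 2 and GEN 3. The lowest CON library was above the highest GEN library, and LPS 1, LPS 2 and LPS 3 measured 5.56, 3.02 and 5.13 FPKM. The limma log2 fold change was -1.03 (SE 0.18, adjusted p = 0.618), and -0.97 (SE 0.15, adjusted p = 0.139) without CON 3. None of the 4 genes passed the test across all genes in either fit.

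**Figure D1:**
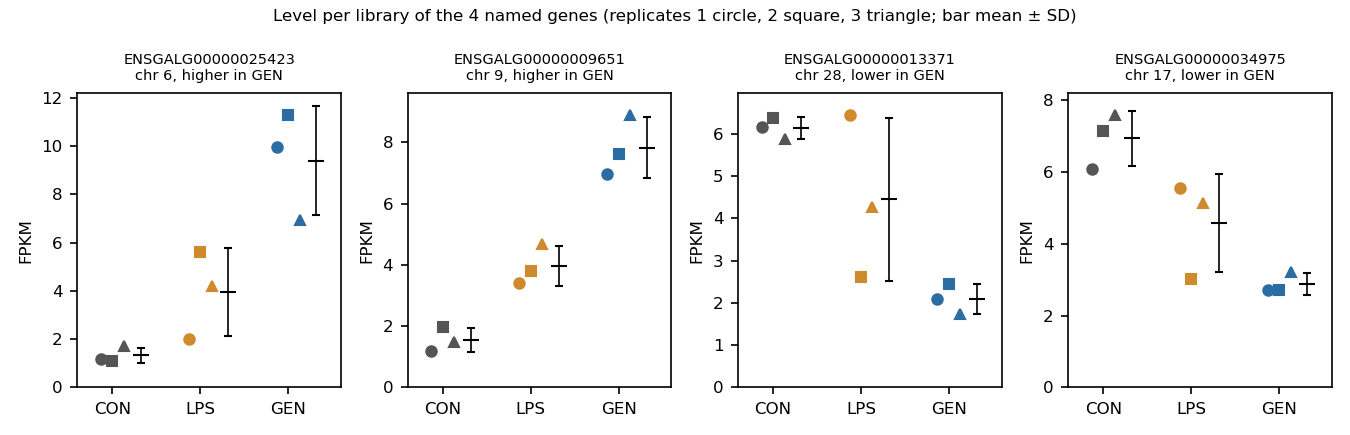
FPKM of the 4 named genes in each CON, LPS and GEN library, with one panel per gene, replicates 1, 2 and 3 as circle, square and triangle, and the mean ± SD (n = 3) as a black bar. For ENSGALG00000009651 the GEN libraries sit between 6.96 and 8.90 FPKM and the CON libraries between 1.20 and 1.98, and for ENSGALG00000013371 the GEN libraries (1.74 to 2.44) lie below the CON libraries (5.87 to 6.38).

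The clearest group by gene length was that of the shortest gene models, which were mostly higher in GEN. Annotated vertebrate gene models of this size are mostly small non-coding RNAs, such as small nucleolar RNAs, which guide chemical modification of other RNAs, and microRNA precursors, but the table gives no gene type. Of the 372 tested gene models of 200 bases or less, 102 were higher in GEN at an unadjusted p under 0.05 without CON 3 (27.4%, against 6.92% of all genes) and 14 lower (3.76%, against 8.98%). With all 6 libraries 87 were higher and 11 lower (23.4% and 2.96%, against 3.12% and 2.94% of all genes). These counts include models that reached 1 FPKM in the 3 GEN libraries only, 12 of the 102 and 15 of the 87. Such models passed the filter through the group in which they are high, and counts without them are given below. Their median log2 fold change was 0.46 without CON 3 and 0.44 with all 6 libraries, where the median of all genes was -0.02 and 0.00. It was similar for models of 100 bases or less (0.47, 214 genes) and for longer ones up to 200 bases (0.43, 158 genes).

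The median level of these 372 models was 3.39, 3.96 and 3.89 FPKM in CON 1, CON 2 and CON 3 and 4.79, 4.92 and 6.95 FPKM in GEN 1, GEN 2 and GEN 3. In FPKM every GEN library was above every CON library, and CON 3 lay with CON 1 and CON 2. LPS 1 stood below every CON library at 3.11 FPKM, LPS 2 within the GEN range at 5.58 and LPS 3 between the groups at 4.66. The place of CON 3 depends on the scaling, since its lower scaling total (0.767 times its gene fragments) raises its FPKM. Medians per library were not taken by sums of fragments. With that scaling the median log2 fold change of the models was 0.61 with all 6 libraries and 0.52 without CON 3. All genes then stood at 0.18 and 0.04. For the FPKM medians the 2-sided exact permutation test over libraries gave p = 0.1, the smallest that 3 against 3 allow. The tested medians include 15 models that reached 1 FPKM in the 3 GEN libraries only, which tilts them towards GEN. They were not taken again without those 15. Leaving out GEN 3, the highest library, lowered the median log2 fold change to 0.32 with all 6 libraries and to 0.29 without CON 3, and the genes higher at an unadjusted p under 0.05 to 47 and 76.

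These models rested on few fragments, a median of 9.25 per library. The filter itself can favour one group: 15 of the 372 reached 1 FPKM in the 3 GEN libraries only and 0 in the 3 CON libraries only. Without those 15, 90 were higher and 14 lower (25.2% and 3.92%), with a median of 0.43 (without CON 3). With all 6 libraries 72 were then higher and 11 lower (20.2% and 3.08%), with a median of 0.42. Of the 173 with at least 5 FPKM on average in the LPS libraries, which the comparison does not use, 56 were higher and 8 lower, with a median of 0.44. Of the 123 with at least 20 fragments on average in the LPS libraries, 42 were higher and 7 lower, with a median of 0.43.

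Most of the short models lay within or across a longer gene model (247 of 372, 229 of them on the same strand). Those 247 had 75 higher and 3 lower without CON 3 (30.4% and 1.21%, against 6.92% and 8.98% of all genes) and a median log2 fold change of 0.54. The 125 outside longer models had 27 higher and 11 lower (21.6% and 8.8%) and a median of 0.27. With all 6 libraries these 125 had 17 higher and 9 lower (13.6% and 7.2%) and a median of 0.10. Both of the latter shares were above those of all genes (3.12% and 2.94%). The 205 tested longer models that hold a short one had 17 higher and 27 lower at an unadjusted p under 0.05 without CON 3 (8.29% and 13.2%, against 6.92% and 8.98% of all genes) and a median of -0.03. Their split depended on the scaling, as did that of all genes. By sums of fragments they had 25 higher and 11 lower and a median of 0.04, near all 13117 genes (1328, 648 and 0.04). With quantile normalization they had 22 higher and 8 lower and a median of 0.01, where all genes had 877, 928 and -0.02. Whether a short model lies in an intron or an exon of the longer one could not be read from the table.

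Among longer genes the counts differed by class. Genes of over 500 and up to 1000 bases had 75 higher and 174 lower without CON 3 (6.6% and 15.3%, against 6.92% and 8.98% of all genes) and a median log2 fold change of -0.09, which was -0.23 with all 6 libraries. Scaled by sums of fragments without CON 3 they had 99 higher and 102 lower, and their median stood at -0.06 against that of all genes, where the authors' scaling gave -0.07. Genes over 4000 bases had 144 higher and 81 lower (7.46% and 4.19%) and a median of 0.03, which was 0.16 with all 6 libraries. The medians of these classes lay further apart with CON 3 in the comparison. Genes over 4000 bases took 18.6%, 19.5% and 16.0% of gene fragments in CON 1, CON 2 and CON 3 and 20.8%, 21.2% and 22.0% in GEN 1, GEN 2 and GEN 3 (exact permutation p = 0.1, two-sided). This share moved with the group even without CON 3, and its part in the other results was not tested.

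Genes also differed by level. Of the 793 genes whose mean over the 6 libraries reached 100 FPKM, 270 were lower in GEN at an unadjusted p under 0.05 without CON 3 (34.0%, against 8.98% of all genes) and 38 higher (4.79%). With all 6 libraries 58 were lower and 6 higher (7.31% and 0.757%, against 2.94% and 3.12% of all genes). Of the 3807 genes under 5 FPKM, 106 were lower (2.78%) and 280 higher (7.35%) without CON 3. The filter can favour one group among low genes, since 54 tested genes reached 1 FPKM in the 3 GEN libraries only, 30 of them higher without CON 3, and 20 in the 3 CON libraries only. From the lowest to the highest level class the median log2 fold change without CON 3 was 0.07 under 5 FPKM, 0.00 at 5 to 20, -0.07 at 20 to 50, -0.11 at 50 to 100 and -0.18 at 100 FPKM or more. With all 6 libraries these medians were 0.10, 0.05, -0.07, -0.20 and -0.37.

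With levels taken from the LPS libraries, 251 of 740 genes of at least 100 FPKM were lower and 34 higher without CON 3, with a median of -0.19. These were 33.9% and 4.59%, against 8.98% and 6.92% of all genes. Scaled by sums of fragments without CON 3, the abundant genes stood at -0.16 against the median of all genes on the log2 scale, and also at -0.16 with the authors' scaling. By sums of fragments 148 were lower and 51 higher, where all genes had 648 and 1328. Quantile normalization, which gives every library the same distribution of levels, leaves little of such a difference by its construction. Under it 85 were lower and 64 higher without CON 3, where all genes had 928 and 877. With all 6 libraries 28 were lower and 32 higher, where all genes had 475 and 365. The genes under 5 FPKM then had 177 higher and 184 lower without CON 3, and 97 higher and 154 lower with all 6 libraries. The count of 270 was 306 without GEN 1, 163 without GEN 2 and 155 without GEN 3, where all 13117 genes had 1285, 846 and 797 lower. The median was -0.14 when CON 1 was left out besides CON 3, and -0.22 when CON 2 was. With all 6 libraries the count of 58 was 38 without CON 1, 117 without CON 2 and 270 without CON 3. It was 14 without GEN 1, 8 without GEN 2 and 7 without GEN 3. These last counts were near the share of all 13117 genes, which had 173, 119 and 111 lower. The median of the abundant genes stayed between -0.49 and -0.18.

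The 793 abundant genes took 45.3%, 44.8% and 57.6% of gene fragments in CON 1, CON 2 and CON 3 and 43.7%, 43.2% and 42.9% in GEN 1, GEN 2 and GEN 3. Every GEN library was below every CON library, and the mean of GEN minus that of CON was -1.83 percentage points without CON 3 and -6.02 with it. Genes under 5 FPKM took 2.36%, 2.42% and 1.71% in CON and 2.64%, 2.81% and 2.73% in GEN. Both classes were set by the mean over these same 6 libraries, CON 3 included, so their shares are descriptions. The shares were not taken again with levels from the LPS libraries. Among the genes under 5 FPKM the filter can also favour GEN, as given above. The number of genes at 1 FPKM or more was 12717, 12848 and 12473 in CON 1, CON 2 and CON 3 and 12973, 13103 and 13144 in GEN 1, GEN 2 and GEN 3, again without overlap. For each of these 3 values the exact permutation p was 0.1 (two-sided, 3 against 3), and 0.16 after adjustment over the 16 values per library that were tested. Of those 16, 10 reached the smallest p.

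**Figure D2:**
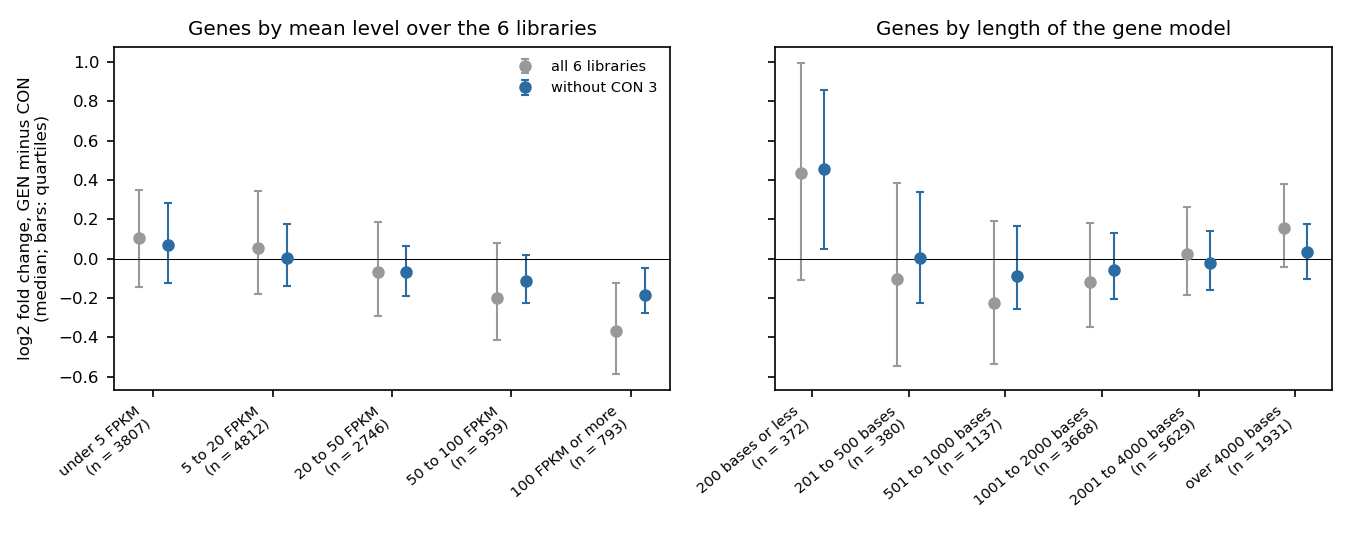
Median log2 fold change (GEN minus CON, log2(FPKM + 1) scale) of genes grouped by mean level over the 6 libraries (left) and by length of the gene model (right), with quartiles as bars, in grey with all 6 libraries and in blue without CON 3. The median goes from 0.07 under 5 FPKM to -0.18 at 100 FPKM or more without CON 3, and gene models of 200 bases or less stand at 0.46.

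**Figure D3:**
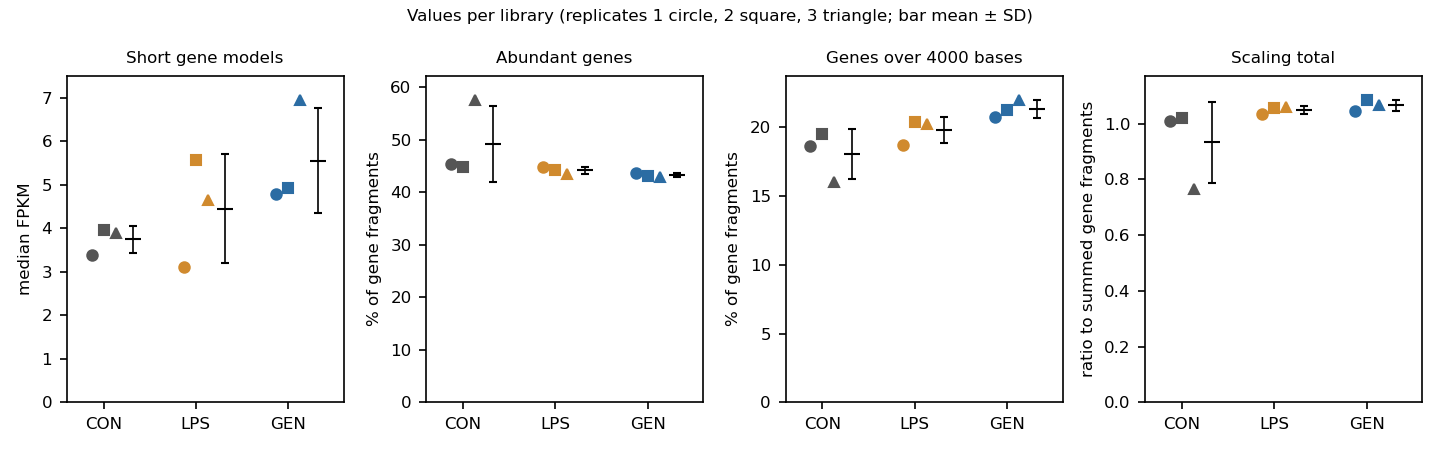
Values of each CON, LPS and GEN library: median FPKM of the 372 short gene models, percent of gene fragments from the 793 genes of at least 100 FPKM and from genes over 4000 bases, and the authors' scaling total divided by the summed gene fragments, with replicates 1, 2 and 3 as circle, square and triangle and the mean ± SD (n = 3) as a black bar. The GEN libraries lie outside the CON range in all 4 panels, and CON 3 is far from CON 1 and CON 2 in the panels of abundant genes (57.6%) and of the scaling total (0.767). The abundant genes were chosen by their mean over the CON and GEN libraries shown.

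By chromosome, genes of the microchromosomes, the small, gene-dense chromosomes of birds, were more often lower in GEN. Chromosomes 1 to 5 stood nearer to all genes. Genes on chromosomes 11 to 33 had 292 higher and 579 lower at an unadjusted p under 0.05 without CON 3 (5.84% and 11.6%), of 4999 tested. On chromosomes 1 to 5 there were 382 higher and 414 lower of 5407 (7.06% and 7.66%), and 193 and 136 with all 6 libraries (3.57% and 2.52%). Chromosomes 6 to 10 had 153 higher and 140 lower of 1984 (7.71% and 7.06%), and 66 and 43 with all 6 libraries (3.33% and 2.17%). The median log2 fold change without CON 3 was -0.06 on chromosomes 11 to 33, -0.01 on chromosomes 1 to 5 and -0.005 on chromosomes 6 to 10. With all 6 libraries these medians were -0.09, 0.06 and 0.04. Chromosomes 11 to 33 took 42.98%, 42.72% and 46.87% of gene fragments in CON 1, CON 2 and CON 3. In GEN 1, GEN 2 and GEN 3 they took 42.59%, 41.75% and 42.32% (exact permutation p = 0.1, two-sided). Chromosomes 1 to 5 took 37.46%, 37.51% and 32.74% in CON and 37.25%, 37.74% and 37.34% in GEN (exact permutation p = 0.6). For chromosomes 6 to 10 the shares were 13.78%, 13.83% and 12.01% in CON and 13.93%, 13.91% and 13.91% in GEN (exact permutation p = 0.1). Scaled by sums of fragments without CON 3, chromosomes 11 to 33 had 405 higher and 329 lower, where all 13117 genes had 1328 and 648. The median of chromosomes 11 to 33 then stood at -0.04 against that of all genes. With the authors' scaling it was -0.05 when CON 1 was left out besides CON 3, and -0.02 over all genes. With all 6 libraries these chromosomes had 110 higher and 192 lower, against 409 and 385 of all genes. The split was 72 and 85 without GEN 1, 66 and 50 without GEN 2, and 53 and 43 without GEN 3. All genes then had 286 and 173, 229 and 119, and 180 and 111. Without CON 2 chromosomes 11 to 33 had 129 and 327, against 535 and 610 of all genes.

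Among single chromosomes, 28 had 7 genes higher and 47 lower of 260 without CON 3 (2.69% and 18.1%, against 6.92% and 8.98% of all genes), and 22 had 2 higher and 26 lower of 154 (1.3% and 16.9%). By sums of fragments these splits were 9 higher and 32 lower, and 6 higher and 17 lower, against 1328 and 648 of all 13117 genes. The medians of chromosomes 28 and 22 were both -0.12, and -0.19 and -0.21 with all 6 libraries. Chromosome 16, which carries the chicken major histocompatibility complex, had 3 higher and 11 lower of 82 (3.66% and 13.4%; 3 and 6 by sums of fragments), with a median of -0.06, and 0 higher and 5 lower with a median of -0.22 with all 6 libraries. Among genes of 20 to 50 FPKM the median without CON 3 was -0.11 on chromosomes 11 to 33 (1140 genes) and -0.04 on chromosomes 1 to 5 (1050 genes). At 100 FPKM or more it was -0.21 (399 genes) and -0.17 (261 genes), and under 5 FPKM 0.06 on both.

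Chromosome Z, of which cocks carry a pair and hens a single copy, had more genes higher than lower in both fits, as did chromosomes 6 to 10. Of its 585 tested genes, 68 were higher and 34 lower without CON 3 (11.6% and 5.81%), and 37 and 7 with all 6 libraries, with medians of 0.07 and 0.16. Leaving out CON 1 besides CON 3 gave a median of 0.05. The 37 and 7 of all 6 libraries were 22 and 3 without GEN 1, 18 and 2 without GEN 2 and 13 and 4 without GEN 3. All 13117 genes had 409 and 385 with all 6 libraries, and then 286 and 173, 229 and 119, and 180 and 111. The median of Z stayed between 0.07 and 0.17 whichever library was left out. It was not positive at every level. Without CON 3 the median of Z was 0.18 under 5 FPKM (170 genes), 0.08 at 5 to 20 (254 genes) and 0.00 at 20 to 50 (113 genes). It was -0.12 at 50 to 100 FPKM (25 genes) and -0.15 at 100 FPKM or more (23 genes). All genes of these levels stood at 0.07, 0.00, -0.07, -0.11 and -0.18. The share of Z in gene fragments was 3.76%, 3.81% and 3.30% in CON 1, CON 2 and CON 3 and 3.82%, 4.08% and 3.93% in GEN 1, GEN 2 and GEN 3. The groups did not overlap, but GEN 1 stood only 0.01 above CON 2, and the exact permutation p was 0.1 (two-sided). The 126 gene models of chromosome W summed to 8.76 FPKM in CON 3 and to 1.58 to 2.34 FPKM in the other CON and GEN libraries.

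**Figure D4:**
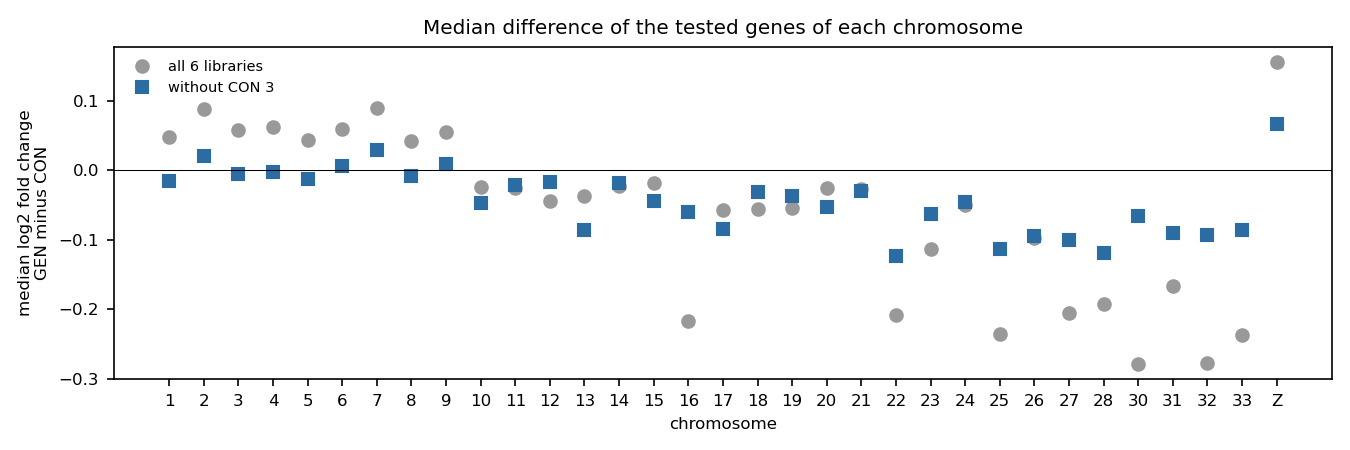
Median log2 fold change (GEN minus CON, log2(FPKM + 1) scale) of the tested genes of each numbered chromosome and of Z, with all 6 libraries as grey circles and without CON 3 as blue squares. Chromosomes 22 and 28 lie at -0.12 without CON 3 and Z at 0.07, and most microchromosomes lie lower with CON 3 in the comparison.

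The difference in the mitochondrial share of fragments had opposite signs with and without CON 3. With the authors' scaling, so did the median log2 fold change of the predicted genes. Mitochondrial transcripts, which encode subunits of the respiratory chain and its ribosomal and transfer RNAs, took 1.43%, 1.55% and 3.94% of gene fragments in CON 1, CON 2 and CON 3 and 1.81%, 1.93% and 1.88% in GEN 1, GEN 2 and GEN 3. The GEN mean was thus 0.388 percentage points above that of CON 1 and CON 2, while GEN minus CON was -0.431 with all 3 CON libraries (exact permutation p = 1.0, two-sided). The median log2 fold change of the 26 tested mitochondrial genes, by contrast, was negative in both fits. It was -0.14 without CON 3, with 6 higher and 4 lower (23.1% and 15.4%, against 6.92% and 8.98% of all genes). With all 6 libraries it was -0.64, with 0 higher and 5 lower (0% and 19.2%, against 3.12% and 2.94%). Predicted genes took 1.96%, 2.33% and 5.39% of gene fragments in CON and 2.89%, 3.28% and 3.67% in GEN. Of the 452 tested, 49 were higher and 18 lower without CON 3 (10.8% and 3.98%, against 6.92% and 8.98% of all genes), with a median log2 fold change of 0.10. With all 6 libraries 15 were higher and 12 lower (3.32% and 2.65%, near the 3.12% and 2.94% of all genes), with a median of -0.06. By sums of fragments both medians were positive, at 0.15 without CON 3 (68 higher and 15 lower) and 0.10 with all 6 libraries (26 and 5). All genes then had 1328 and 648, and 684 and 153. Quantile normalization gave 34 higher and 27 lower without CON 3, where all genes had 877 and 928. With all 6 libraries it gave 9 higher and 24 lower, where all genes had 365 and 475. Over the main fit and its alternatives, more predicted genes were higher than lower in 15 of 17 settings with all 6 libraries. Without CON 3 this held in 16 of 16. The difference in the share of chromosome 33 likewise had opposite signs with and without CON 3, at 3.64%, 3.93% and 7.53% of fragments in CON and 4.36%, 4.65% and 5.01% in GEN.

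Runs of at least 3 tested genes in a row with an unadjusted p under 0.05 in the same direction in both fits numbered 2. The run higher in GEN lay on chromosome 26 (47040 to 106478). Its middle gene (76711 to 94225, minus strand) measured 29.8, 23.3 and 64.7 FPKM in CON 1, CON 2 and CON 3, 84.4, 85.0 and 93.6 FPKM in GEN 1, GEN 2 and GEN 3, and 29.9, 41.5 and 53.7 FPKM in the LPS libraries. The GEN libraries were alike and above all others, while CON 3 lay nearer to them than CON 1 and CON 2 did. Its limma log2 fold change was 1.69 (SE 0.12) with an adjusted p of 0.0754 without CON 3, the lowest of that fit, and 1.27 (SE 0.36) with an adjusted p of 0.655 with all 6 libraries. It was the gene that limma-voom called without CON 3. The genes on either side measured 1.33 ± 0.614 FPKM in CON and 2.97 ± 0.272 in GEN (47040 to 65837), and 0.856 ± 0.548 in CON and 2.07 ± 0.186 in GEN (103162 to 106478, SD, n = 3). Their log2 fold changes were 0.80 and 0.76 with all 6 libraries, and 0.61 and 0.99 without CON 3.

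The run lower in GEN lay on chromosome 27 (4040247 to 4123304). Its genes measured 68.8 ± 4.0 FPKM in CON and 53.8 ± 6.22 in GEN (4040247 to 4045220), 29.8 ± 9.05 and 18.8 ± 1.19 (4112494 to 4119316), and 114 ± 29.1 and 77.8 ± 1.63 (4119715 to 4123304; SD, n = 3). The last lies a short way beyond the second on the opposite strand. In the same order the log2 fold changes of the 3 genes were -0.35, -0.60 and -0.52 with all 6 libraries. Without CON 3 they were -0.33, -0.37 and -0.33. The limma adjusted p of these genes was 0.241 to 0.279 without CON 3, and 0.655 for each with all 6 libraries.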

How the data were processed

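Per the labels' protocols, thymus RNA came from a Trizol extraction and the libraries from an Illumina TruSeq kit. CASAVA 1.8, featureCounts 1.5.0-p3 and the build GRCg6a are named in the submitters' processing notes. The aligner, the annotation release and whether counting used strand were not given in the sources used here. Values as deposited are held in 1 table: FPKM by the authors, with positions and lengths of the gene models. In every library the product of FPKM and length was a whole multiple of one step (100% of values above 0 within 0.01), from which fragments were recovered.

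The members and lists were chosen with earlier results of these data known. Tested genes reached 1 FPKM in 3 or more of the 6 libraries. At the filter, 423 members had exactly 3 such libraries (median of their mean level 1.09 FPKM), and 450 genes with 2 were left out (0.862 FPKM). limma 3.58.1 (R 4.3.3) was fitted, with a prior variance that follows the mean, to log2(FPKM + 1), a scale that understates changes of low genes, with a two-sided test and Benjamini-Hochberg adjustment. The same genes were fitted without CON 3. Unadjusted p-values serve as descriptions. The fit was run on simulated libraries with one common spread, no library apart like CON 3, and changes only in genes of many fragments. It therefore does not bear on CON 3 or on the short gene models.

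Named genes were the first 2 in each direction by the larger p of both fits, taken from those averaging 1 FPKM or more, with 10 or more fragments in 3 or more libraries and groups that do not overlap. The 19 gene lists could not be used, since 0 identifiers matched a symbol in the GRCg7b table at hand. No 2 libraries of a group were identical, and their fragments differed beyond counting error (chi-square per degree of freedom 21.5 to 280.5). The recovered fragments per library set the counting precision, and no interval on shares is given since libraries differed by far more than counting error. Alternatives are quantile normalization, scaling by fragment sums, no trend, limma-voom, library quality weights, other filters, a pseudocount of 0.1, all groups in one fit, a replicate block and leaving out each library. Level classes by the LPS libraries were chosen after seeing the data. Figures were drawn with matplotlib 3.10.9.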

Additional observations from a re-analysis of the deposited data

How the results depend on the processing

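With all 6 libraries, 15 of 16 alternatives kept 0 genes at a limma adjusted p under 0.05. Library quality weights, which gave CON 3 a weight of 0.064, called 46 genes (35 higher, 11 lower), among them the 4 named genes, and 16 had 200 bases or less. The number at an unadjusted p under 0.05 was 2732 of 13117 with these weights and 1427 of 13117 with all groups in one fit. Without a filter it was 1299 of 21165, a share like that of the main fit (794 of 13117). Leaving out 1 library gave 0 genes at an adjusted p under 0.05 and 291 to 2086 at an unadjusted p under 0.05 (2086 without CON 3, 459 without GEN 1, 348 without GEN 2, 291 without GEN 3). Without CON 3, limma-voom called 1 gene, and leaving out 1 more library gave 0 to 1 (1 without CON 2, a predicted gene) and 901 to 2290 at an unadjusted p under 0.05 (901 without CON 1). There the remaining CON library is assumed to vary like the GEN libraries. The 4 named genes kept their sign in 124 alternative values, which their choice by groups that do not overlap largely fixes, and 4 of these, all with library quality weights, newly passed (limma adjusted p 0.0125 to 0.0397). The lowest belongs to ENSGALG00000025423, which met the fragment minimum through GEN alone, so its pass is no support. For the short gene models more were higher than lower in all 17 settings with all 6 libraries and all 16 without CON 3. For the abundant genes more were lower in 16 of 17 (not with quantile normalization, 32 higher and 28 lower) and in 16 of 16. With a GEN library left out of all 6, however, their count of lower genes was near the share of all genes. Over all genes more were higher in 9 of 17 and 3 of 16 settings. The settings refit the same libraries, and the fit without CON 3 enters both tallies, so these are descriptions. Except for the filter of 1 FPKM in every library, they keep the 15 short models that reached 1 FPKM in the 3 GEN libraries only.

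The replicate numbers of the labels were checked for pairing. Deviations of same-numbered libraries correlated at 0.147, 0.129 and 0.048, so not every pair was above 0.1, though each library correlated best with its own number, a hint from the data and not from the design. With the replicate block, 0 genes were called in both fits, with 621 at an unadjusted p under 0.05 with all 6 libraries and 2131 without CON 3.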
